A study of Homo sapiens with 6 samples.

Results

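The genes described here encode the nuclear-made subunits of respiratory complexes II to V, with the ATP synthase inhibitor ATP5IF1 and the supercomplex factor COX7A2L. Members were all genes whose probe set carries the single symbol SDHA, SDHB, SDHC, SDHD or CYC1, or a symbol starting with UQCR, COX4, COX5, COX6, COX7, COX8 or ATP5, with pseudogenes left out. This gave 46 of 18404 measured genes, namely 3 of complex II, 8 of complex III, 17 of complex IV and 18 of complex V. SDHB, UQCRFS1, UQCRHL, ATP5F1E and the readthrough ATP5MF-PTCD1 had no probe set of their own symbol and were not analysed here. Expression was measured on Affymetrix arrays in HCT116, an established human colorectal carcinoma line, sorted by the surface glycoprotein CD133 (PROM1). There were 3 arrays of CD133+ cells and 3 of CD133- cells, numbered 1 to 3 in each fraction, and no treatment is labelled. Both fractions come from the same line, so they stand for a single tumour, and the labels do not say whether repetitions were separate cultures or sorts. Every p-value here thus reflects how far these 6 arrays scatter, and that scatter may be technical.

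The respiratory chain passes electrons from fuel molecules to oxygen in the inner mitochondrial membrane. Complex II (succinate dehydrogenase) oxidises succinate and reduces ubiquinone, complex III (cytochrome bc1) moves electrons from ubiquinol to cytochrome c, and complex IV (cytochrome c oxidase) reduces oxygen to water. Complexes III and IV pump protons, and complex V (ATP synthase) lets them flow back through a rotating ring to make ATP. Complex II is made wholly from nuclear genes, while the other complexes combine nuclear subunits with subunits of mitochondrial DNA. Several complex IV subunits exist as a general form and as a form known from heart and muscle, lung or testis.

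Values are log2 signals after Robust Multichip Average processing (RMA), and every difference is CD133+ minus CD133- on that scale. The main test was limma with the repetition number as a block, with p-values adjusted by Benjamini-Hochberg over all 28230 tested probe sets at a threshold of 0.05. PROM1 itself measured 7.35 ± 0.25 in CD133+ cells and 4.57 ± 0.67 in CD133- cells (SD, n = 3 each), a difference of 2.77 (SE 0.16, limma adjusted p = 0.0120), so the arrays follow their labels. Of the 10 colorectal epithelial markers, EPCAM (11.11 in CD133+ cells, 10.89 in CD133- cells) and KRT8 (11.90 in CD133+ cells, 12.14 in CD133- cells) had high signals, while VIL1 (4.47 in CD133+ cells, 4.59 in CD133- cells) and LGALS4 (5.48 in CD133+ cells, 5.31 in CD133- cells) lay near or below the array medians. Array medians over the tested probe sets lay between 5.46 and 5.60 in CD133+ cells and between 5.44 and 5.59 in CD133- cells.

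Genes of complexes II to V had small differences, mostly towards CD133+ cells. The mean difference was above 0 for 40 of the 46 genes (87.0%), against 47.9% of all genes, and the median difference was 0.09, against -0.0064 over all genes. In bulk RNA a smaller number of cells expressing a gene and less of its RNA per cell cannot be told apart. No member passed the threshold (0 of 46), against 0.298% of all probe sets in the same limma fit, where the smallest absolute difference that passed was 0.64. At an unadjusted limma p under 0.05, 3 of 46 members (6.52%) were higher in CD133+ cells and 0 were lower. The higher share is near the 5.82% of all probe sets and 5.90% of all genes that were higher at that level. It is also near the 7.48% of genes with a mean signal above 8. Among all 18404 genes, 1086 were higher and 1055 lower at that level. All shares set beside each other here are descriptions without a test of their difference.

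The direction was not equal across repetitions. Members were higher in CD133+ cells in 27 of 46 cases in repetition 1, in 42 in repetition 2 and in 40 in repetition 3, against 47.3%, 53.6% and 46.9% of all genes. The median member difference was 0.030 in repetition 1, 0.10 in repetition 2 and 0.16 in repetition 3. Repetition 3 gave the largest of the 3 differences for 29 of 46 genes, and repetition 1 the smallest for 26. Without repetition 3 the median over members was 0.056, and without repetition 1 it was 0.12. Altogether 21 of 46 members (45.7%) were higher in CD133+ cells in all 3 repetitions and 0 were lower in all 3, against 17.7% higher and 18.4% lower among all genes. Most members have bright probe sets, and bright genes leaned the same way: above a mean signal of 8, a bound chosen after the values were seen, 26.5% of 3355 genes and 17 of 31 members were higher in all 3 repetitions. At that signal the mean difference was above 0 for 30 of 31 members, against 56.8% of genes, and 19, 31 and 29 of 31 members were higher in repetitions 1, 2 and 3, against 57.8%, 54.2% and 52.4% of genes. Lower in all 3 repetitions were 0 members, against 18.7% of these genes. After repeated quantile normalization, 13 of 46 members were higher in all 3 repetitions, against 16.6% of all genes. Above a signal of 8 these were 10 of 31 members, against 21.0% of genes. Under this normalization 38 of 46 members had a mean difference above 0, against 46.6% of all genes and 48.8% of genes above a signal of 8. With arrays centred on their medians, 27 of 46 members were higher in all 3 repetitions, against 18.1% of all genes.

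The 3 arrays of each fraction rarely separated. For 4 of 46 members (8.70%), ATP5F1D, ATP5MC1, COX4I1 and COX5B, every CD133+ array lay above every CD133- array, against 3.43% of all genes and 3.85% of genes above a signal of 8. No member lay wholly lower in CD133+ cells (0 of 46), against 4.52% of all genes and 4.23% of genes above a signal of 8. The fractions overlapped for the other 42 members.

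**Figure D1:**
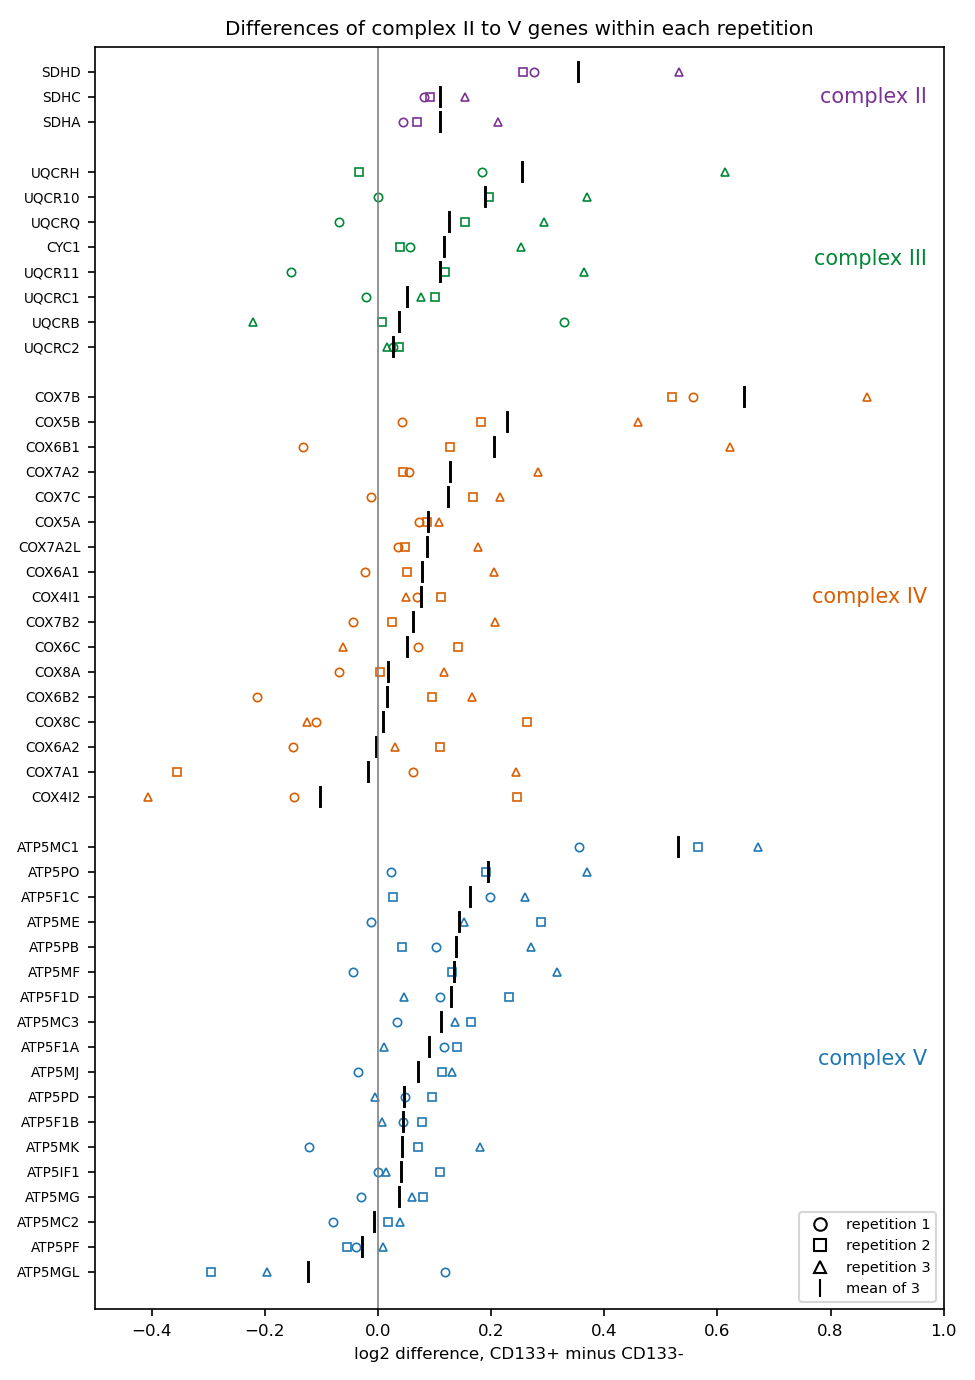
Log2 difference between CD133+ and CD133- cells for each of the 46 genes, by complex, with open symbols for repetitions 1 to 3 and a black bar for their mean. COX7B (0.65), ATP5MC1 (0.53) and SDHD (0.35) have the largest means, and the mean lies above 0 for 40 of 46 genes.

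COX7B, ATP5MC1 and SDHD had the largest differences, and for these genes alone among the members the 95% interval of the difference lay wholly above 0. COX7B encodes subunit VIIb, a small nuclear subunit of cytochrome c oxidase. Its signal was 7.93, 8.55 and 8.38 in CD133+ repetitions 1, 2 and 3, against 7.38, 8.03 and 7.51 in CD133- repetitions 1, 2 and 3. CD133+ was the higher array within each repetition, but the fractions overlapped, since CD133+ repetition 1 lay below CD133- repetition 2. The difference was 0.65 (SE 0.099, 95% interval 0.41 to 0.89), a 1.57-fold higher signal in CD133+ cells, with limma adjusted p = 0.0808.

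ATP5MC1 encodes subunit c, copies of which form the rotating ring of ATP synthase. Its signal was 8.52, 8.94 and 8.69 in CD133+ repetitions 1, 2 and 3, against 8.16, 8.37 and 8.02 in CD133- repetitions 1, 2 and 3. Every CD133+ array lay above every CD133- array. The difference was 0.53 (SE 0.094, 95% interval 0.30 to 0.76), or 1.44-fold, with limma adjusted p = 0.113.

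SDHD encodes the small membrane anchor of succinate dehydrogenase, which helps hold haem and the ubiquinone site. Its signal was 9.90, 10.10 and 9.78 in CD133+ repetitions 1, 2 and 3, against 9.63, 9.85 and 9.25 in CD133- repetitions 1, 2 and 3. The fractions overlapped between repetitions, although CD133+ was higher within each one. The difference was 0.35 (SE 0.092, 95% interval 0.13 to 0.58), or 1.28-fold, with limma adjusted p = 0.241. A second SDHD probe set of lower signal gave 0.32 (limma adjusted p = 0.279). Which SDHD probe set lies at the gene's own locus was not examined, so the values given here may not be those of SDHD itself.

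The calls for COX7B and ATP5MC1 depended on how the variance was estimated and on which probe sets were tested. With a prior variance that follows signal intensity, 2 of 46 members passed, COX7B (limma adjusted p = 0.0165) and ATP5MC1 (0.0240), against 1.23% of all probe sets. With only probe sets above the median mean signal, the same genes passed (limma adjusted p = 0.0169 and 0.0256), against 2.86% of the 14115 probe sets then tested. Without the repetition block 0 of 46 members passed, against 0.00354% of all probe sets, every adjusted p was 1.00, and the smallest unadjusted limma p was 0.00825, for ATP5MC1. Repeated quantile normalization gave 0 of 46 members, against 0.237% of all probe sets. Leaving out repetition 1, 2 or 3 gave 0 of 46 members each time, against 0.152%, 0.0638% and 0.0% of all probe sets.

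**Figure D2:**
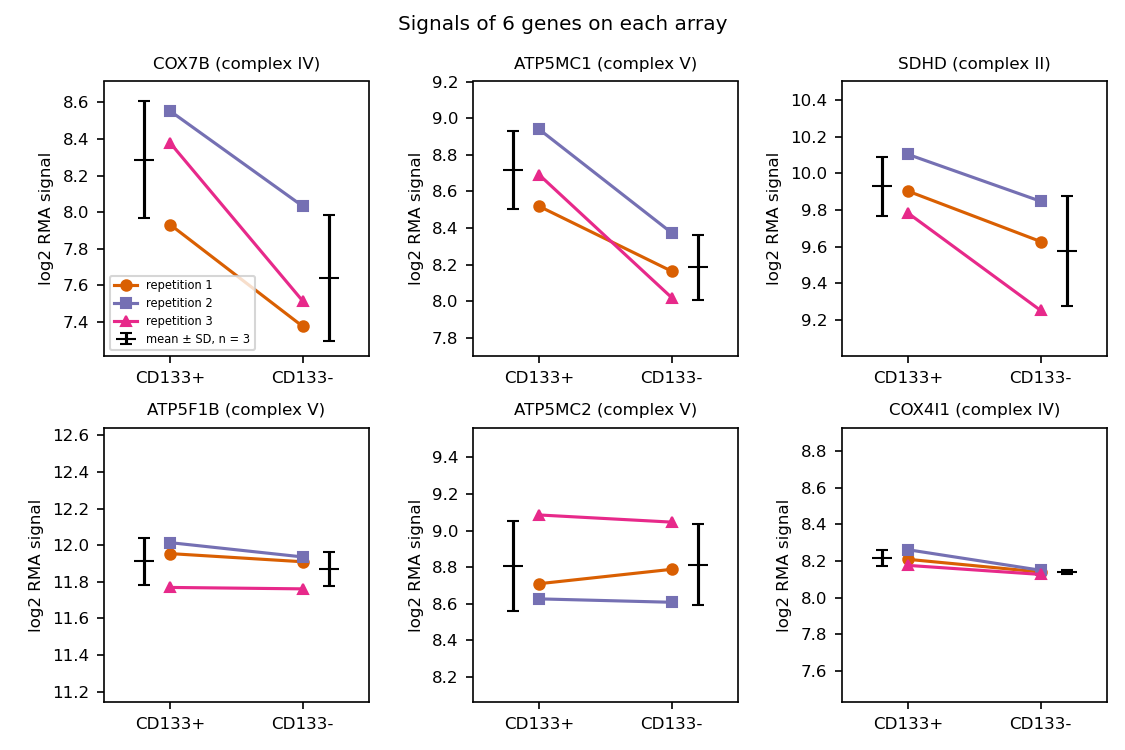
Log2 RMA signal on each of the 6 arrays for COX7B, ATP5MC1 and SDHD, the members with the largest differences, and for ATP5F1B, ATP5MC2 and COX4I1 as examples of small ones. Lines join the arrays of a repetition, bars show mean ± SD (n = 3), and all panels span the same height. CD133+ lies above CD133- within each repetition for COX7B, ATP5MC1 and SDHD, and by less for ATP5F1B and COX4I1. For ATP5MC2 the direction differs between repetitions, and the repetitions lie further apart than the fractions.

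The promoters of these 3 genes are shown because their differences were the largest. The sequences are RefSeq's, from build GRCh38.p14, and run 5′ to 3′ from 250 bases before the annotated start to 50 bases after it. Capitals mark matches, on either strand, to 6 motifs, in which N is any base. The NRF1 motif was GCGC, any base, then TGCGC. The others were CCGGAA (ETS family, which includes the mitochondrial regulator GABPA), AANATGGCG (YY1), AAGGTCA (oestrogen-related receptors), TGACGTCA (CREB) and CCAAT (NF-Y). No 2 matches overlap (0 overlaps in the 3 promoters).
COX7B (chrX:77899218-77899517, + strand): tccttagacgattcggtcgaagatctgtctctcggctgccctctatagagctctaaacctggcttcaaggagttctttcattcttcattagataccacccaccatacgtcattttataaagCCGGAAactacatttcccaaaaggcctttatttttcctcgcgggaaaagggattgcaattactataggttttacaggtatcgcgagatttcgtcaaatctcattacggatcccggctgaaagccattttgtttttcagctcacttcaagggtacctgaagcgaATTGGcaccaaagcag
ATP5MC1 (chr17:48892537-48892836, + strand): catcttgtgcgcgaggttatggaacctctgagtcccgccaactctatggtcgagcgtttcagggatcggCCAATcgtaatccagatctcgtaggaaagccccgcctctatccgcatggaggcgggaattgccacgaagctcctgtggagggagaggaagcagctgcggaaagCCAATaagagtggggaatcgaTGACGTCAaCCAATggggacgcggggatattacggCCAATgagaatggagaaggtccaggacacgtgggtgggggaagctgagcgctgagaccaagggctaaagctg
SDHD (chr11:112086623-112086922, + strand): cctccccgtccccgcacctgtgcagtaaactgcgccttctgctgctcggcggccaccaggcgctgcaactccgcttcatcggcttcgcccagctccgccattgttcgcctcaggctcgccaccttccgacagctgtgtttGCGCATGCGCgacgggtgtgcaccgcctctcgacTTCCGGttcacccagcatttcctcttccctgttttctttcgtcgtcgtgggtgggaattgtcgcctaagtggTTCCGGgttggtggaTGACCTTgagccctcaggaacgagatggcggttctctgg

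The 3 promoters share no motif among the 6 searched. The SDHD window holds 1 NRF1 match, 2 ETS matches and 1 receptor match, letters of factors known to act on nuclear genes for mitochondria. The ATP5MC1 window holds 4 CCAAT matches and 1 CREB match but none of the NRF1 or ETS letters, and the COX7B window holds 1 ETS match and 1 CCAAT match. Of the 46 members, 35 had a promoter entry. Among these the NRF1 motif occurred in 10 (28.6%), against 6.98% of all 27305 genes with an entry. The ETS motif occurred in 21 of 35 (60.0%), against 20.1% of all genes. The receptor motif occurred in 6 (17.1%, against 4.80% of all genes), the YY1 motif in 4 (11.4%, against 3.85%), the CREB motif in 2 (5.71%, against 2.25%) and CCAAT in 17 (48.6%, against 39.7%). A match describes letters in this window and is no evidence of binding in these cells.

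By its kept probe sets, complex II had the most even direction. All 3 measured subunits were higher in CD133+ cells in 3 of 3 repetitions, with a median difference of 0.11. This did not hold for the other SDHC probe set, described below. SDHA, the flavoprotein that oxidises succinate, measured 9.80 ± 0.10 in CD133+ cells and 9.69 ± 0.19 in CD133- cells (SD, n = 3 each). Its difference of 0.11 (SE 0.083) had limma adjusted p = 0.690. SDHC, the large membrane anchor, measured 9.65 ± 0.19 in CD133+ cells and 9.54 ± 0.23 in CD133- cells, a difference of 0.11 (SE 0.079, limma adjusted p = 0.670). The fractions overlapped for all 3 subunits. SDHC and SDHD each had a second probe set of lower signal. For SDHD it gave nearly the same difference, 0.32, and for SDHC it gave 0.31 with -0.058 in repetition 2, so the SDHC probe sets disagree in size. Probe sets of complex II genes with related pseudogene copies may share signal, and their values are uncertain for that reason. The kept probe set was chosen by signal alone. Which probe set lies at the gene's own locus was not examined, so the SDHC and SDHD values may not be those of the genes themselves.

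All 8 measured genes of complex III had mean differences above 0, with a median of 0.11, yet 3 of 8 were higher in all 3 repetitions. UQCRH, the acidic hinge protein near the cytochrome c site, measured 6.42 ± 0.20 in CD133+ cells and 6.16 ± 0.24 in CD133- cells (SD, n = 3 each). Its difference of 0.25 (SE 0.13, limma adjusted p = 0.535) was made up of 0.18, -0.033 and 0.61 in repetitions 1, 2 and 3. UQCR10, a small subunit, measured 8.87 ± 0.12 in CD133+ cells and 8.68 ± 0.20 in CD133- cells, a difference of 0.19 (SE 0.098, limma adjusted p = 0.538). CYC1, the haem protein cytochrome c1, measured 10.66 ± 0.04 in CD133+ cells and 10.54 ± 0.15 in CD133- cells, a difference of 0.12 (SE 0.087, limma adjusted p = 0.682). The difference was 0.05 for the core protein UQCRC1 and 0.027 for the core protein UQCRC2. It was 0.04 for UQCRB, 0.11 for UQCR11 and 0.13 for UQCRQ, all small subunits. UQCRB, which takes part in the ubiquinone-binding region, had opposite differences in repetitions 1 (0.33) and 3 (-0.22). The complex III median was 0.013, 0.070 and 0.27 within repetitions 1, 2 and 3. Repetition 3 held the largest of these medians, and without it the complex III median was 0.045, against 0.18 without repetition 1.

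Complex IV had 14 of 17 genes above 0, a median of 0.08 and 6 of 17 genes higher in all 3 repetitions. After COX7B, the smallest p-values belonged to COX5B and COX7A2. COX5B, a zinc-binding subunit on the matrix side, had signals of 8.43, 8.60 and 8.76 in CD133+ repetitions 1, 2 and 3, against 8.39, 8.42 and 8.30 in CD133- repetitions 1, 2 and 3. The CD133+ arrays lay above the CD133- arrays, narrowly so at the nearest pair. The difference was 0.23 (SE 0.10, 95% interval -0.022 to 0.48, limma adjusted p = 0.478). COX7A2, the general form of subunit VIIa, measured 9.62 ± 0.18 in CD133+ cells and 9.49 ± 0.11 in CD133- cells (SD, n = 3 each), a difference of 0.13 (SE 0.089, limma adjusted p = 0.661).

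COX4I1, the general form of subunit IV, is regulatory and binds ATP. It measured 8.22 ± 0.04 in CD133+ cells and 8.14 ± 0.01 in CD133- cells (SD, n = 3 each). Its fractions did not overlap although the difference was only 0.08 (SE 0.079, limma adjusted p = 0.779). COX5A, a subunit on the matrix side, had a difference of 0.09, COX6A1 of 0.08, COX6C of 0.05, COX7C of 0.12 and COX8A of 0.018. COX6B1, an intermembrane-space subunit, had 0.21, made up of -0.13, 0.13 and 0.62 in repetitions 1, 2 and 3. COX7A2L, which links complexes III and IV in supercomplexes, had 0.09.

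Subunits known as tissue forms showed no common direction. COX4I2, the lung form of subunit IV, measured 5.04 ± 0.01 in CD133+ cells and 5.14 ± 0.32 in CD133- cells (SD, n = 3 each). The heart and muscle forms COX6A2 and COX7A1 had differences of -0.0033 and -0.017, and the testis forms COX6B2, COX7B2 and COX8C had 0.016, 0.06 and 0.0095. None of these 6 genes was higher, or lower, in all 3 repetitions. COX7B2 measured 2.72 ± 0.07 in CD133+ cells and 2.66 ± 0.06 in CD133- cells. Signals of different probe sets cannot be ranked against each other on these arrays.

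Complex V had 15 of 18 genes above 0, a median of 0.08 and 9 of 18 genes higher in all 3 repetitions. In the catalytic head, ATP5F1A (alpha) had a difference of 0.09, ATP5F1B (the catalytic beta subunit) 0.04, ATP5F1C (gamma, the rotating shaft) 0.16 and ATP5F1D (delta, of the shaft) 0.13. ATP5F1C measured 10.21 ± 0.09 in CD133+ cells and 10.05 ± 0.21 in CD133- cells (SD, n = 3 each, SE of the difference 0.087, limma adjusted p = 0.553). ATP5F1B measured 11.91 ± 0.13 in CD133+ cells and 11.87 ± 0.09 in CD133- cells, and its 95% interval ran from -0.15 to 0.23. For ATP5F1D the fractions did not overlap, with 9.14, 9.21 and 9.15 in CD133+ repetitions 1, 2 and 3, against 9.03, 8.98 and 9.10 in CD133- repetitions 1, 2 and 3 (limma adjusted p = 0.635).

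In the stator that holds the head still, ATP5PO (the oligomycin sensitivity protein) measured 10.07 ± 0.20 in CD133+ cells and 9.87 ± 0.03 in CD133- cells (SD, n = 3 each). Its difference was 0.20 (SE 0.096, limma adjusted p = 0.516), with 0.024, 0.19 and 0.37 in repetitions 1, 2 and 3. The other stator subunits ATP5PB, ATP5PD and ATP5PF had 0.14, 0.05 and -0.028. Small membrane subunits, some of which help ATP synthase form dimers, lay between 0.04 and 0.14, with ATP5ME at 0.14, ATP5MF at 0.13, ATP5MG at 0.04, ATP5MJ at 0.07 and ATP5MK at 0.04. A second ATP5MK probe set gave 0.16, so the ATP5MK probe sets disagree in size. A second COX6A1 probe set gave 0.07. Which ATP5MK or COX6A1 probe set lies at the gene's own locus was not examined, so these values may not be those of the genes themselves. ATP5IF1, which blocks ATP hydrolysis by the enzyme, had 0.04. ATP5MGL, a gene closely related to ATP5MG, had the lowest value of all members at -0.12, with 0.12, -0.30 and -0.20 in repetitions 1, 2 and 3.

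Subunit c is made from ATP5MC1, ATP5MC2 and ATP5MC3, which encode the same mature protein behind different import sequences. ATP5MC2 had signals of 8.71, 8.63 and 9.09 in CD133+ repetitions 1, 2 and 3, against 8.79, 8.61 and 9.05 in CD133- repetitions 1, 2 and 3. The arrays of a repetition lay close together while repetition 3 stood above the others in both fractions. The ATP5MC2 difference was -0.0070 (SE 0.081, 95% interval -0.20 to 0.19), and that of ATP5MC3 was 0.11 (95% interval -0.084 to 0.31). The ATP5MC1 interval of 0.30 to 0.76 lies above that of ATP5MC2, and a difference between the genes was not tested.

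The intervals bound what these arrays could miss. The upper end of the 95% interval was below 0.5 for 41 of 46 members, and the lower end was below -0.5 for 0 of 46. For most members, a difference beyond 0.5 in either direction therefore lies outside the interval of this fit, and smaller differences were not resolved. The number of arrays limits this precision.

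**Figure D3:**
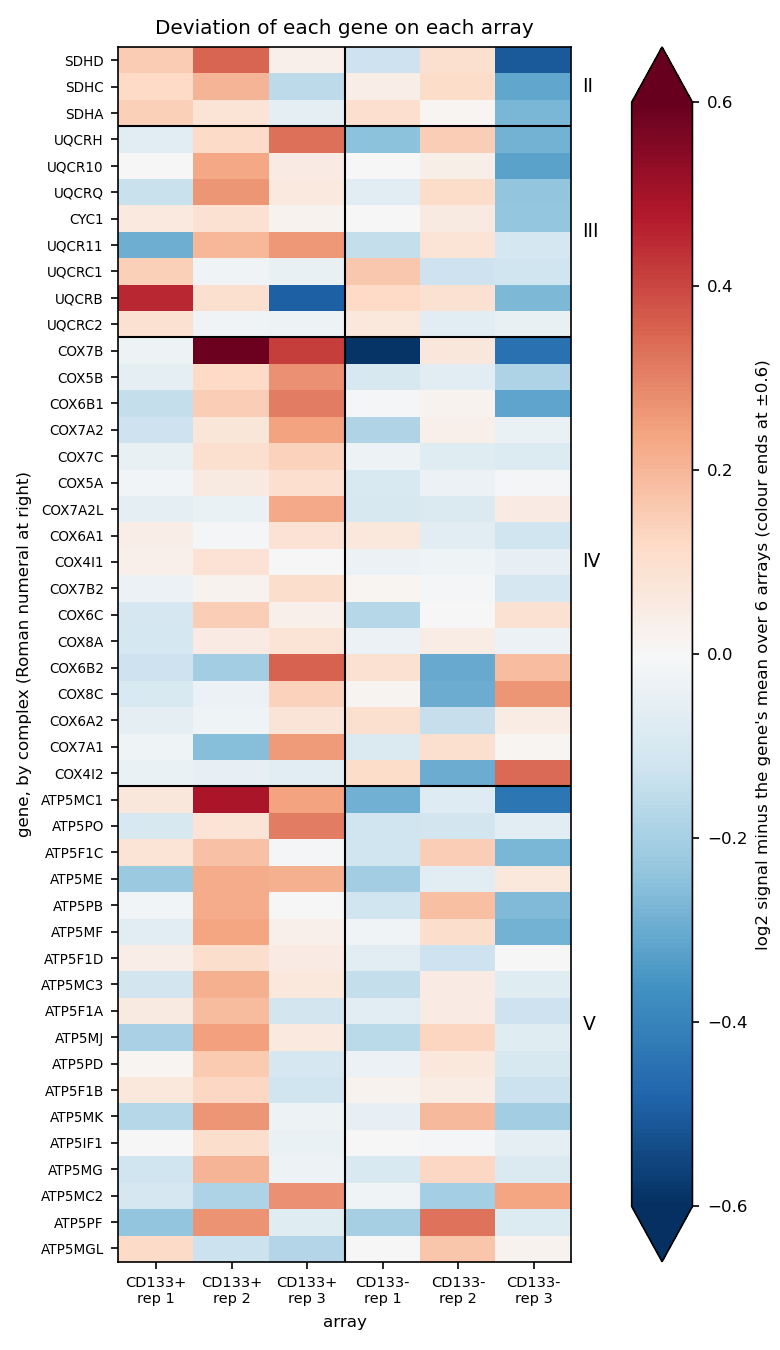
Deviation of each gene's log2 signal from its own mean over the 6 arrays, with CD133+ arrays left of CD133- arrays and genes ordered within each complex by their difference. Most complex V genes are high in repetition 2 of both fractions. ATP5MC1 separates the fractions, while COX7B is higher in CD133+ cells within each repetition but its fractions overlap.

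Repetition took a larger share of the members' variance than fraction did. The median share of a member's variance was 63.1% for repetition and 16.1% for fraction, against 67.8% and 8.21% over all genes. Repetition has more levels than fraction, so scatter alone tends to give it a larger share, and the shares were not adjusted for this. For 13 of 46 members (28.3%) the fraction took the larger share, against 16.5% of all genes. These 13 included 8 of the 17 complex IV genes and 4 of the 18 complex V genes, ATP5MC1 among them.

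The complexes differed in which repetition was high. With both fractions averaged, repetition 2 was the highest for 13 of 18 complex V genes, 5 of 8 complex III genes and 2 of 3 complex II genes. In complex IV repetition 3 was the highest for 10 of 17 genes and repetition 1 the lowest for 10 of 17. Complex II went the other way in repetition 3, which was the lowest for 3 of 3 genes, with a median of -0.35 relative to the other repetitions. Among all genes above a signal of 8, repetition 2 was the highest for 63.3% and repetition 3 the lowest for 60.8%, so the pattern of complexes II, III and V is near that background. Complex IV has 10 of 17 genes above a signal of 8 and 7 at or below it, so both backgrounds are given. Repetition 3 was the highest for 17.0% of genes above a signal of 8 and for 43.0% of all genes. It was the lowest for 60.8% and 33.3%, and repetition 1 was the lowest for 18.4% and 24.6%. Repetition 3 was the lowest for 1 of 17 complex IV genes. No test was made of these patterns, and repetitions are not a condition of the study.

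**Figure D4:**
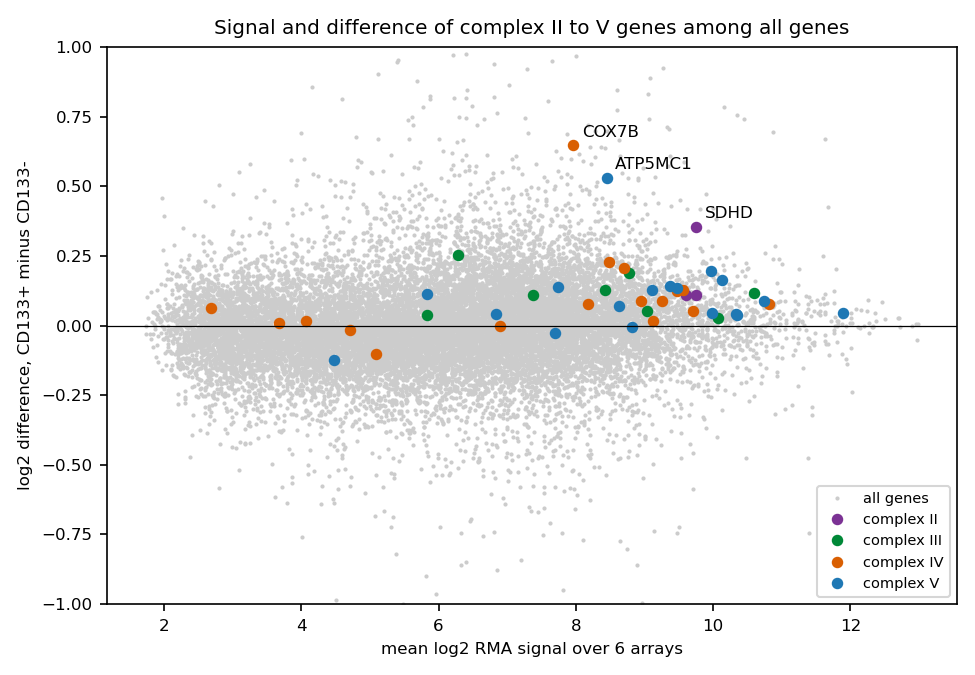
Log2 difference against mean log2 RMA signal for the members, coloured by complex, and for all 18404 genes in grey. The difference axis ends at ±1, beyond which 42 genes and no member lie. Members of high signal sit mostly just above 0, and COX7B and ATP5MC1 stand clear of them.

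Other nuclear genes of the organelle were examined through lists that do not overlap with the members. Among all genes, 47.9% had a mean difference above 0, and among genes above a signal of 8, 56.8% did. Complex I subunits had 30 of 34 measured genes above 0 and a median of 0.15, with NDUFB6 at 0.32 and NDUFS3 at 0.33. Of these 34 genes, 24 were higher in all 3 repetitions, against 17.7% of all genes. Assembly factors of complexes II to V had 26 of 34 above 0 and a median of 0.06. Among them the complex IV factor COA4 had 0.33, and SDHAF3, which helps mature the iron-sulfur subunit of complex II, had 0.32. Citric acid cycle enzymes had 13 of 15 above 0 with a median of 0.06, led by SUCLG2 at 0.22 and DLAT at 0.15. Import and outer membrane genes had 16 of 18 above 0 with a median of 0.06, led by TIMM10 at 0.24 and TIMM8A at 0.27. None of these genes passed the threshold (0 in each list, against 0.298% of all probe sets). Regulators of mitochondrial gene expression had 13 of 19 above 0 and a median of 0.07, with 0 past the threshold. TWNK, the helicase of mitochondrial DNA, had 0.26 and MYC had 0.24. Of the 19 regulators, 6 lay below 0, the lowest at -0.25. Higher in all 3 repetitions were 5 of 19, against 17.7% of all genes, and lower in all 3 were 2 of 19, against 18.4%. The subunits encoded by mitochondrial DNA had 0 of 6 genes under a symbol of their own in the annotation.

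S phase genes also had differences mostly above 0, with 23 of 25 above it and a median of 0.14. Their median was 0.11, 0.0027 and 0.24 within repetitions 1, 2 and 3. POLE2 at 0.40 and RFC3 at 0.39, both parts of the replication machinery, had the smallest p-values, and 0 passed. The summed signal over the 25 S phase genes ran from 212 to 229 in CD133+ arrays and from 205 to 229 in CD133- arrays. These ranges are not paired by repetition, which held a median 93.4% of the variance of these genes. The part of S phase genes in the members' differences was not tested. S phase genes were higher in CD133+ cells in 20, 13 and 22 of 25 cases in repetitions 1, 2 and 3, and the members in 27, 42 and 40 of 46.

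**Figure D5:**
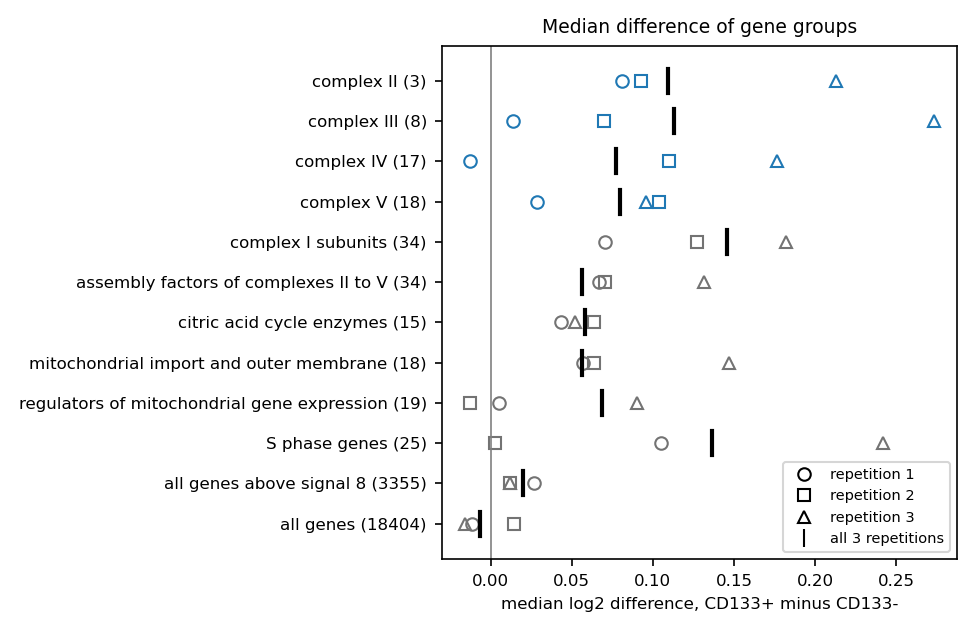
Median log2 difference of each complex and of other gene lists, with the number of genes in brackets, open symbols for the medians within repetitions 1 to 3 and black bars for the median of the mean differences. Complexes II to V lie between 0.08 and 0.11, complex I subunits at 0.15, S phase genes at 0.14 and all genes at -0.0064.

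Epithelial markers split in direction, with 6 of 10 above 0, and 0 passed. The keratin KRT18 had -0.48 and the tight junction gene CLDN7 had 0.48. Markers of other cell types had fewer genes above 0, and 0 passed. Leukocyte markers had 3 of 8 above 0 (CD68 at 0.22 and MS4A1 at -0.28), with summed signals of 32.4 to 33.7 in CD133+ arrays and 31.9 to 34.5 in CD133- arrays. Fibroblast markers had 2 of 7 above 0 (COL1A1 at -0.19 and COL3A1 at -0.21), with sums of 32.0 to 33.7 in CD133+ arrays and 32.4 to 34.4 in CD133- arrays. Endothelial markers had 1 of 6 above 0 (CD34 at 0.24, PECAM1 at -0.12), with sums of 24.0 to 24.6 in CD133+ arrays and 23.9 to 24.5 in CD133- arrays. The sums of the fractions, not paired by repetition, overlapped for all 3 lists. RMA signals have no true 0, and the leukocyte marker PTPRC measured 2.44 in CD133+ cells and 2.33 in CD133- cells.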

How the data were processed

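Total RNA of sorted HCT116 cells was labelled with a whole-transcript biotin kit, per the labels' protocols. The deposited values are log2 signals made by the authors with RMA (background correction, normalization between arrays and probe set summary), per the labels' design text. That scale follows from their range of 1.09 to 13.7 (0 missing). Which RMA program was run, and on which genome build, the sources used here do not say. A U133 array is named in the series' design text, but the row identifiers belong to a whole-transcript Gene ST array, whose annotation was used.

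Of 32321 rows, a leading block of 4091 without genes was left out as controls, and 28230 probe sets were tested. Of these, 19158 carried 1 symbol, 1388 several (naming no gene) and 7684 none. For each gene the probe set with the highest mean was kept, and 4 members had a second one. Which of them lies at the gene's own locus was not examined. The 2 pseudogenes ATP5F1EP2 and UQCRBP1 were left out, and 0 columns were unused. The fit was limma 3.58.1 in R 4.3.3 (lmFit, eBayes) with fraction and repetition as terms. Repetition was kept as a block because the arrays share numbers in their titles and arrays with the same number deviated together from the means of their fractions, with correlations of 0.447, 0.616 and 0.589, against a bound of 0.1. The fit was tested on simulated data. Members, lists and motifs were chosen with earlier results of these data known. The rule for full statistics took PROM1, members past the threshold and the 3 members of smallest p in each complex. From each list it took the 2 genes of smallest p. COX4I1, ATP5F1B, ATP5F1D and the subunit c genes were given more values after theirs were seen. Of 198 list entries, 176 were measured. Alternatives changed the block, repetitions, normalization, dim-probe filter, prior variance, probe set choice and control rows.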

Additional observations from a re-analysis of the deposited data

How the results depend on the processing

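The 12 members given with full statistics had differences above 0 in all 120 values from the 10 alternative settings, and 4 of those values passed, COX7B and ATP5MC1 each in 2 settings. Changing the block, the prior variance, the control rows or the dim-probe filter cannot alter these differences. The 12 were also chosen by smallest p in these same data, so this count is no independent evidence of direction. Sizes were less stable: without repetition 3 the difference was 0.08 for UQCRH, 0.05 for COX7A2, 0.05 for CYC1, 0.11 for COX5B, 0.10 for UQCR10, 0.06 for SDHA and 0.11 for ATP5PO, each less than the reported value by over 1.5 times. UQCRH was at 0.40 without repetition 2, and SDHC at 0.21 with the mean of probe sets. Members past the threshold numbered 0 in the main fit, 2 with an intensity trend in the prior variance and 2 with only probe sets above the median mean. They numbered 0 in the other settings, the fit without the replicate block and the fits without a repetition included. Members higher in all repetitions numbered 21 of 46 as reported. They numbered 13 after repeated quantile normalization (16.6% of all genes) and 27 with arrays centred on their medians (18.1% of all genes). The cause of these changes was not tested. Without repetition 1, 2 and 3 such members numbered 37, 23 and 24, against 28.6%, 27.1% and 28.3% of all genes. Only 2 repetitions had to share the direction there. The complex II median became 0.21 with the mean of probe sets, through the second SDHC probe set, and ranged from 0.09 to 0.14 without 1 repetition. The complex V median ranged from 0.056 to 0.12 without 1 repetition, the highest being without repetition 1. Without 1 repetition the complex III median ranged from 0.045 to 0.18 and the complex IV median from 0.05 to 0.11, both lowest without repetition 3 and highest without repetition 1.

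Of all probe sets, 84 passed in the main fit, 347 with an intensity trend and 403 with the dim-probe filter. Blocking on the repetition number, a pairing the labels do not state, mattered for this count: 1 passed without the replicate block (974 at an unadjusted limma p under 0.05). With all rows of the table included 0 passed (3051 at an unadjusted limma p under 0.05). Between 0 and 43 passed without 1 repetition, with 0 without repetition 3 (2276 at an unadjusted limma p under 0.05), 18 without repetition 2 and 43 without repetition 1. Under the block, leaving out 1 array also removes its partner from the contrast. The PROM1 call ended without the replicate block (adjusted p = 0.142), with all rows included (0.109) and without repetition 3 (0.0980). The number of arrays limits what can be resolved, and the standard error of a member's difference ran from 0.078 to 0.15, the largest being that of COX6B1.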
